A study of Mus musculus with 4 samples.

Results

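The reelin receptor pathway was followed in laser-captured mouse Purkinje cells through 9 genes: the ligand Reln, the receptors Vldlr and Lrp8, the adaptor Dab1, the kinases Fyn and Src, the adaptors Crk and Crkl, and Pafah1b1. They were taken as every probe set whose only gene symbol in the platform annotation is one of these names, which gave 34 of 45101 probe sets on the Affymetrix array and 9 of 18193 named genes. Purkinje cells were cut from frozen sagittal sections of the cerebellum of intact male C57BL/6J mice aged 8 weeks. There were 4 samples, 2 from each of 2 animals, called 1-1, 1-2, 2-1 and 2-2 here by animal and sample. The animals carry the same labels, with no treatment and no engineered allele named, and neither the way cells were recognised nor the separateness of the captures from 1 animal is stated in the labels. Tests between the animals therefore set their difference against the spread between samples of the same animal, which may be technical. With 1 animal on each side, the spread from animal to animal cannot be told apart from the difference. The intervals and p-values apply to these samples only. The design text also mentions the granule cell layer, which was not analysed here.

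Reelin is a large secreted glycoprotein that guides the layering of cortical neurons and, in the cerebellum, the placing of Purkinje cells, and in the adult cerebellum it is made mainly by granule cells. It binds the receptors VLDLR and ApoER2 (the product of Lrp8), whose tails hold the adaptor Dab1, and Src family kinases then phosphorylate Dab1, which recruits Crk proteins and feeds other signalling. Lis1, the product of Pafah1b1, regulates the motor dynein and has been linked to phosphorylated Dab1. Loss of reelin (the reeler mouse), of Dab1 (scrambler and yotari) or of both receptors leaves most Purkinje cells out of their layer.

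The 250 bases before annotated starts of the ligand and of its receptors are shown because these genes stand at the head of the pathway, with the first of the 3 starts of Lrp8. Sequences are from RefSeq on GRCm38.p6, read 5′ to 3′ on the gene's strand, and capitals mark matches on either strand to the GC box GGGCGG, the TATA box TATAAA or the nuclear receptor half-site AGGTCA.
Reln chr5:22344706-22344955 (- strand): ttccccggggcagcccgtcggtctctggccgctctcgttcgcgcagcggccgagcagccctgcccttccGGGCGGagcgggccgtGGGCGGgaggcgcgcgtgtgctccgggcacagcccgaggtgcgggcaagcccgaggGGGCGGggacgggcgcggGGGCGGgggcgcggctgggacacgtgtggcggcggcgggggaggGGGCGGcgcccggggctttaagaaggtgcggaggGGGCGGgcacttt
Vldlr start 1 chr19:27216234-27216483 (+ strand): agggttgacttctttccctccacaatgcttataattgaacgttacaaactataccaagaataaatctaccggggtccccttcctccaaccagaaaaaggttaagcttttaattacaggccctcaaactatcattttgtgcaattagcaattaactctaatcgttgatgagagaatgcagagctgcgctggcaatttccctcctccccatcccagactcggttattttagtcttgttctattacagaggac
Vldlr start 2 chr19:27216770-27217019 (+ strand): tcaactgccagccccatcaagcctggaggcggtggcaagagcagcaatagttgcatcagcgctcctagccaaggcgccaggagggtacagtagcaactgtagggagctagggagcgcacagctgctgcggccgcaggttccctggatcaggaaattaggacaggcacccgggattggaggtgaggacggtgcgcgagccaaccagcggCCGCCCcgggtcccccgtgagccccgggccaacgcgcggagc
Lrp8 start 1 chr4:107802635-107802884 (+ strand): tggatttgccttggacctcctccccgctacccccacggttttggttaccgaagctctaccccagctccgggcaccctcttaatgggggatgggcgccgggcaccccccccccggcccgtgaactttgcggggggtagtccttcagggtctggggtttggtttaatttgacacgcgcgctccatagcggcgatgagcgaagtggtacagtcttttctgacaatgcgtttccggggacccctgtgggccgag
The Reln window held 6 GC boxes and 37 CpG dinucleotides at a G+C content of 80.0%. The windows before Vldlr start 1 and start 2 held 5 and 18 CpG dinucleotides and 0 and 1 GC box, at 41.6% and 66.4% G+C, and the window before Lrp8 start 1 held 18 and 0, at 62.4% G+C. Of all 13 windows of the 9 genes, 6 held a GC box, 0 a TATA box and 1 (Lrp8 start 3, not shown) the half-site, and no match overlapped a different motif. Among all 32851 windows of this length, 32.7% held the GC box, 12.4% the TATA box and 14.0% the half-site. These matches describe letters only, since the arrays did not measure the promoters.

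The median deposited signal was 8.4, 8.5, 9.6 and 11.4 in samples 1-1, 1-2, 2-1 and 2-2, and precision is limited by there being only 4 arrays. Levels below are quantile-normalized log2 signals, with means ± SD over 2 animals, and levels of different probe sets cannot be ranked against each other, because each responds differently to the same amount of RNA. A probe set counted as above background where it passed, on an array, the 95th percentile of a set of genes whose expression is restricted to non-neural organs, which lay at 5.85, 5.41, 5.37 and 5.60 in that order of samples. The labelled cell type was borne out by its markers: all 11 measured genes of the Purkinje cell list, among them Calb1 (13.68) and Foxp2 (8.84 ± 0.02), passed on all 4 arrays. Markers of other cells were also present, with 8 of 10 Bergmann glia and astrocyte genes and 6 of 13 granule cell genes passing on all 4 arrays.

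At their brightest probe sets, 8 of the 9 genes lay above background on all 4 arrays, against 29.9% of all named genes. These shares are not fully alike, because taking the brightest favours genes with many probe sets. The 9 genes had 34 probe sets, and the 18193 named genes had 34945. Src was the exception. By probe set, 16 of 34 passed on all 4 arrays, against 21.7% of all named probe sets, 6 passed on 1 to 3 arrays and 12 on none, so a gene counted as above background often had probe sets that were not. Taking the median over a gene's probe sets left 4 genes above the bound, Vldlr, Lrp8, Dab1 and Fyn. With the bound at the 99th percentile 6 genes passed, without Reln, Fyn and Src, and at the 90th percentile all 9 did. The choice of probe set and of bound thus decides the call for Reln, Fyn, Src, Crk, Crkl and Pafah1b1.

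**Figure D1:**
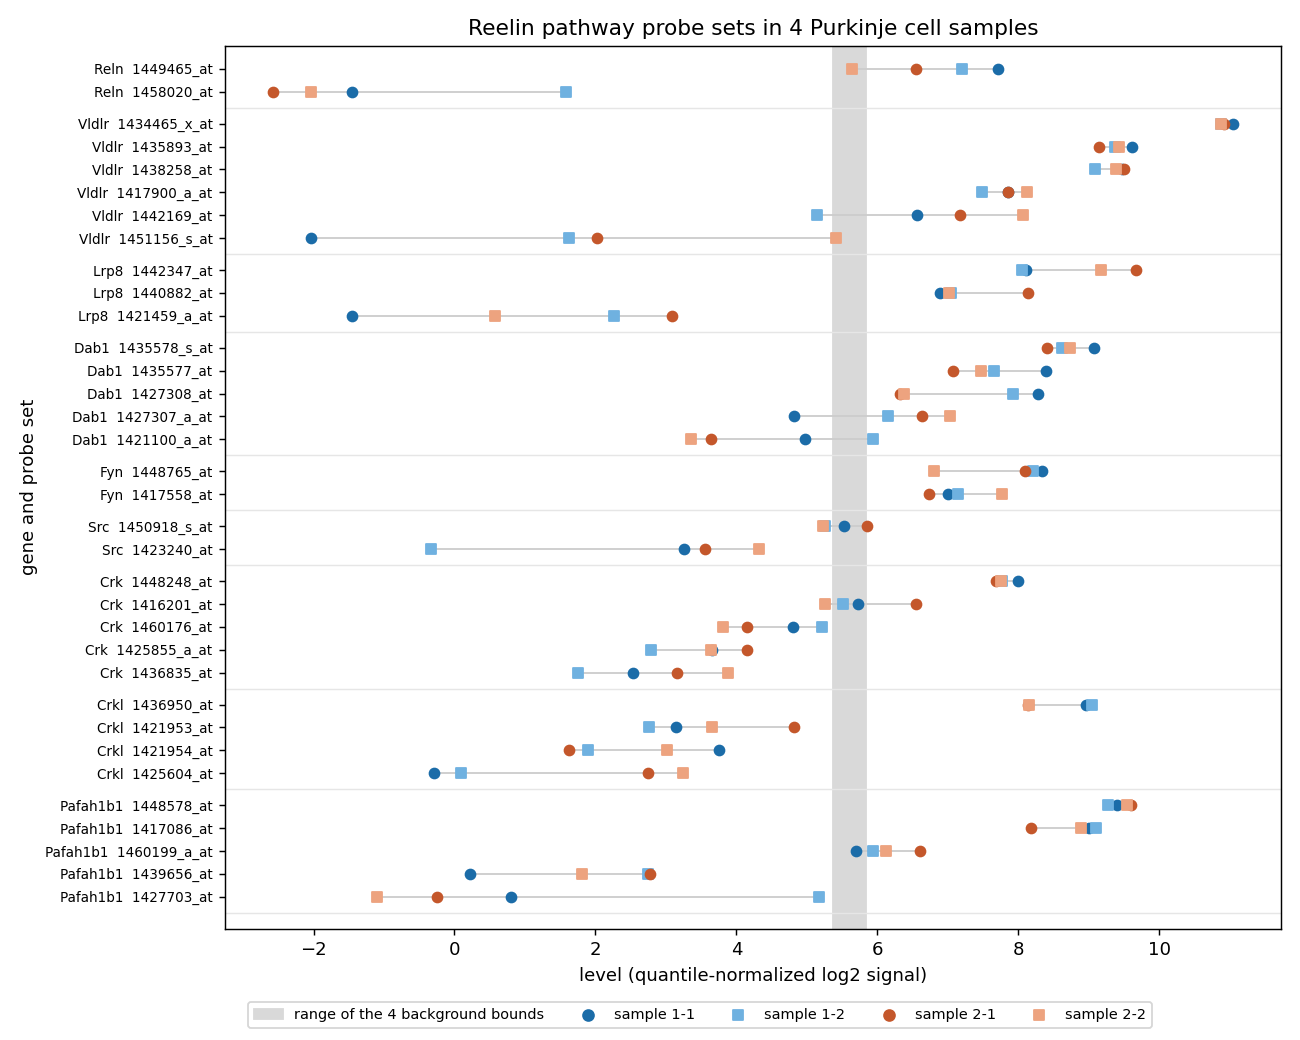
Levels of all 34 probe sets of the 9 genes in the 4 samples, as quantile-normalized log2 signals on the horizontal axis, with 1 row per probe set and 1 point per sample. The grey band is the range of the background bounds of the 4 arrays, from 5.37 to 5.85; the Vldlr probe sets spread from below the band to 11.04, and both Src probe sets lie in or below it, apart from 5.86 at its upper edge in sample 2-1.

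Reln, the ligand, was higher in both samples of animal 1 than in those of animal 2. Its probe set 1449465_at was at 7.71 and 7.20 in samples 1-1 and 1-2 and at 6.54 and 5.64 in samples 2-1 and 2-2, which is 6.78 ± 0.97 (SD, n = 2 animals). The samples of the animals did not overlap, and sample 2-2 lay within 0.1 of its array's bound. The difference, animal 2 minus animal 1, was -1.36 ± 0.47 (SE, 95% interval -2.48 to -0.25), or 0.388 times the signal, and it did not pass the threshold (limma, adjusted p = 0.223). It became -1.80 without sample 2-1, -0.91 without sample 2-2 and -0.79 on deposited signals (limma, adjusted p = 0.307 for the last). The other probe set, 1458020_at, had deposited signals of 0.3, 3.0, 0.2 and 0.3 and was below background on every array.

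The summed signals of granule cell markers, and of every other non-Purkinje list, were also lower in both samples of animal 2 than in those of animal 1. The sums of the Purkinje cell list went the other way, at 74303 and 75363 in animal 1 and 79947 and 80052 in animal 2. Of its 11 tested genes, 6 were higher and 4 lower in animal 2, and Calb1 was fixed at the top rank by quantile normalization. The summed signal of the brightest probe sets of the 13 measured granule cell genes was 4394 and 5385 in animal 1 and 2093 and 2175 in animal 2. All 7 of these genes that were tested were lower in animal 2, with a median difference of -1.26, against a median of -0.05 over all 11806 tested probe sets. Zic1, a transcription factor of granule cells, was the called one (-1.29 ± 0.18, limma, adjusted p = 0.0480), and Neurod1, another, stood at -1.97 ± 0.34 (adjusted p = 0.0706). Zic2, Grin2c, Pax6 and Slc17a7 (1.98 ± 0.31) were below background on every array. Bergmann glia and astrocyte genes, which include Gja1 (11.72 ± 0.40) and Sox9 (5.23 ± 0.90), had summed signals of 11307 and 11058 in animal 1 and 9637 and 8703 in animal 2. Of the 10 glial genes, all tested, 8 had a negative and 2 a positive difference, with a median of -0.27. The sums of the interneuron list were 563 and 603 in animal 1 and 415 and 421 in animal 2, those of the oligodendrocyte list 4748 and 4465 against 3838 and 3039. Microglia gave 255 and 218 against 151 and 153, and blood vessel genes 767 and 792 against 495 and 455. Such sums follow their brightest genes. Among tested microglia genes Csf1r stood at -1.46 and C1qb at 1.54, and among tested oligodendrocyte genes Cnp stood at -0.69 and Mbp at 0.13. Of the 3 tested genes in each of the interneuron and blood vessel lists, 2 were lower and 1 higher in animal 2. The part of RNA from these other cells in the Reln signal was not tested, and in captured material fewer cells of a type and less RNA per cell cannot be told apart.

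**Figure D2:**
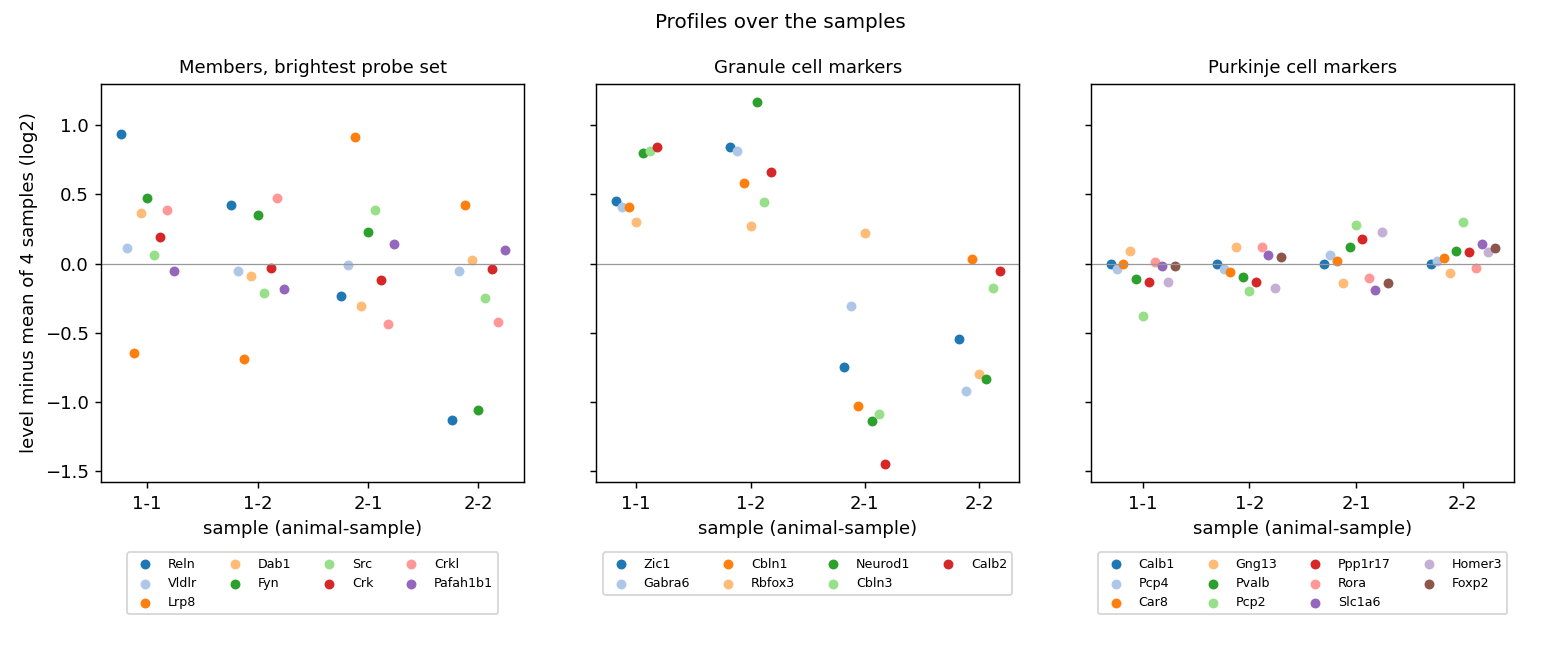
Level in each sample minus the mean of the 4 samples (log2) for the brightest probe set of each of the 9 genes, of the 7 tested granule cell markers and of the 11 tested Purkinje cell markers, with 1 point per gene and sample. Reln and the granule cell markers sit higher in animal 1, Lrp8 sits higher in animal 2, and the Purkinje cell markers include Pcp2, 0.57 higher in animal 2. Quantile normalization fixes the top ranks, so the brightest Calb1 probe set is at 13.68 on every array and its point at 0 is no measure of stability, while Calb1 1448738_at, not plotted, was 0.88 lower in animal 2.

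Vldlr, the receptor for very low density lipoprotein that also binds reelin, gave signals above background on all 4 arrays with 4 of its 6 probe sets. No difference between the animals was called on these. Its brightest, 1434465_x_at, was at 11.04, 10.88, 10.92 and 10.88 in samples 1-1, 1-2, 2-1 and 2-2, and deposited signals ran from 1626.3 to 2408.6. The suffix of this probe set marks probes that can bind other transcripts. The probe sets 1435893_at (9.39 ± 0.15), 1438258_at (9.36 ± 0.11) and 1417900_a_at (7.83 ± 0.22), which have no such mark, also passed on all 4 arrays. Between the animals these 4 probe sets differed by -0.06 (95% interval -0.34 to 0.23), -0.22 (-0.73 to 0.30), 0.16 (-0.37 to 0.69) and 0.32 (-0.44 to 1.07), none of them called (adjusted p from 0.662 to 0.844, limma). On deposited signals all 4 differences were positive, at 0.39, 0.27, 0.65 and 0.87 in the same order, and that of 1438258_at turned negative without sample 1-2.

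The Vldlr probe set 1442169_at varied more. It was at 6.57 and 5.15 in animal 1 and at 7.18 and 8.06 in animal 2, so the animals did not overlap, and sample 1-2 lay below its bound. The difference of 1.76 ± 0.59 (SE, 95% interval 0.37 to 3.16) was not called (limma, adjusted p = 0.211). It became 1.05 without sample 1-2 and 2.49 without sample 1-1. The sixth, 1451156_s_at, had deposited signals of 0.2, 3.1, 3.9 and 57.0 and was below background on every array.

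Lrp8, which encodes the receptor ApoER2, was higher in both samples of animal 2 on its brightest probe set. Deposited signals of 1442347_at were 226.4 and 222.6 in animal 1 and 880.2 and 758.2 in animal 2, and its levels were 8.11, 8.06, 9.67 and 9.18. The samples of animal 1 nearly coincided, and those of animal 2 lay at least 1.07 above them. The difference was 1.34 ± 0.27 (SE, 95% interval 0.70 to 1.98), a signal ratio of 2.53, and it was not called (limma, adjusted p = 0.0951). Its call depended on the setting: it was called on deposited signals (1.86, limma, adjusted p = 0.0196). The other alternatives that kept 2 samples per animal gave adjusted p from 0.0563 to 0.251. With 1 sample left out, the difference ran from 1.10 (without sample 2-1) to 1.60 (without sample 2-2).

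On the second Lrp8 probe set, 1440882_at, only sample 2-1 stood out, at 8.15 against 6.89, 7.04 and 7.02 in samples 1-1, 1-2 and 2-2. Its difference was 0.61 ± 0.45 (95% interval -0.46 to 1.69, adjusted p = 0.538, limma) and fell to 0.05 without sample 2-1. The third, 1421459_a_at, had deposited signals of 0.3, 4.6, 8.6 and 1.8, below background on every array. The probe sets thus gave differences of the same sign but of different size, and the excess of animal 2 on 1442347_at was not matched in sample 2-2 on 1440882_at.

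Dab1, the adaptor that carries the reelin signal inside the cell, passed on all 4 arrays with 3 of its 5 probe sets. Of its 4 tested probe sets, 3 were lower and 1 was higher in animal 2. The brightest, 1435578_s_at, was at 9.08, 8.62, 8.40 and 8.74 in samples 1-1, 1-2, 2-1 and 2-2, with the animals overlapping and a difference of -0.28 ± 0.28 (SE, adjusted p = 0.658, limma), which became 0.24 on deposited signals. The suffix of 1435578_s_at also marks probes that can bind other transcripts. On 1435577_at, which the annotation assigns to the same record, the levels were 8.39, 7.65, 7.07 and 7.47, with no overlap. The difference was -0.75 ± 0.38 (SE, adjusted p = 0.373, limma). It became -0.38 without sample 1-1, -1.11 without sample 1-2 and -0.18 on deposited signals.

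A larger gap appeared on 1427308_at. Its deposited signals were 255.1 and 202.6 in animal 1 and 89.2 and 112.6 in animal 2, and its levels 8.28, 7.93, 6.33 and 6.38, with no overlap. The difference was -1.75 ± 0.35 (SE, 95% interval -2.58 to -0.92), or 0.297 times the signal, at adjusted p = 0.0934 (limma). It was not called in any alternative that kept 2 samples per animal (limma, adjusted p from 0.0585 to 0.255). Over all alternatives the difference ran from -1.92 (without sample 1-2) to -1.18 (on deposited signals), and was -1.73 without sample 2-1 and -1.79 without sample 2-2.

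The probe set 1427307_a_at, which the annotation assigns to the same sequence record as 1427308_at, went the other way. Its levels were 4.82 and 6.16 in animal 1, with sample 1-1 below its bound, and 6.64 and 7.03 in animal 2. The difference was 1.34 ± 0.59 (SE, 95% interval -0.07 to 2.76, adjusted p = 0.313, limma). It became 0.68 without sample 1-1 and 2.04 without sample 1-2. The signs of both probe sets held in every alternative in which they were tested. The fifth probe set, 1421100_a_at, had deposited signals of 26.7 and 50.6 in animal 1 and 12.6 and 12.4 in animal 2, passed its bound in sample 1-2 alone and was not tested. Where on the transcript each probe set lies was not analysed here.

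**Figure D3:**
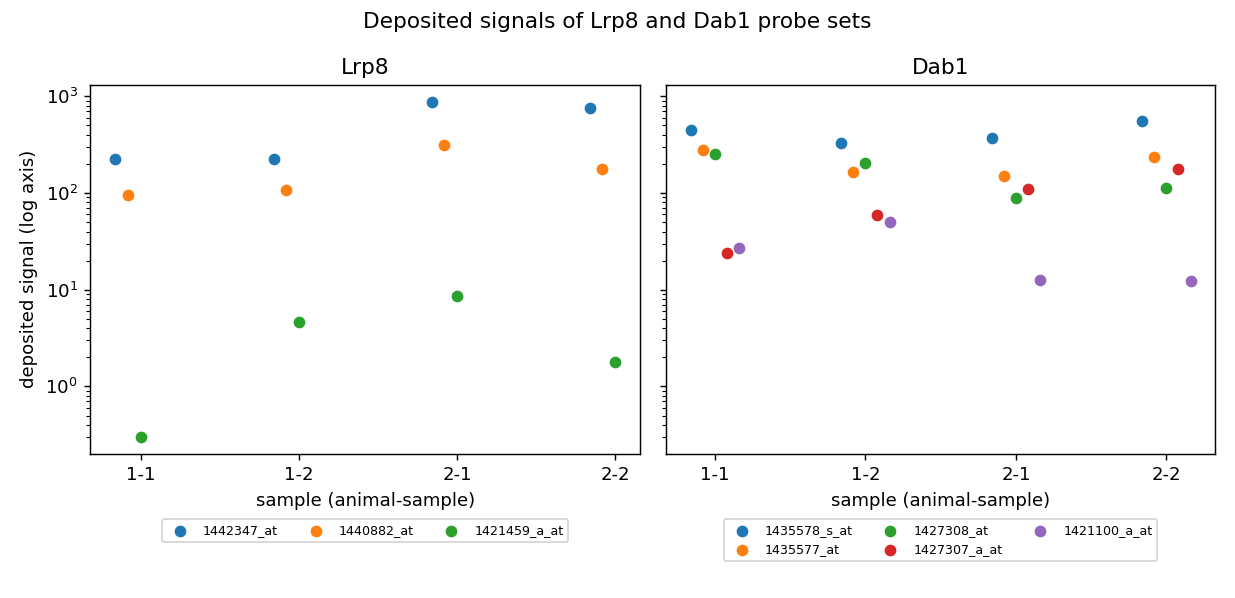
Deposited signals, on a log axis, of the 3 Lrp8 and 5 Dab1 probe sets in the 4 samples, with 1 point per probe set and sample. Lrp8 1442347_at is at 222.6 and 226.4 in animal 1 and at 758.2 and 880.2 in animal 2, while the Dab1 probe sets 1427308_at and 1427307_a_at move in opposite directions between the animals. In sample 1-1 the probe set 1427307_a_at lies below its background bound.

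Fyn and Src are the Src family kinases best known for phosphorylating Dab1, Fyn being the main one in embryonic mouse brain. Fyn passed on all 4 arrays with both probe sets. On 1448765_at it was at 8.34, 8.22, 8.09 and 6.81 in samples 1-1, 1-2, 2-1 and 2-2, so that sample 2-2 alone lay far below the rest. The difference of -0.83 ± 0.45 (SE, adjusted p = 0.408, limma) became -1.48 without sample 2-1, which left sample 2-2 alone for animal 2, and -0.18 without sample 2-2. On 1417558_at sample 2-2 was instead the highest, with levels of 7.01, 7.15, 6.73 and 7.76, and the difference was 0.17 ± 0.44 (95% interval -0.88 to 1.22, adjusted p = 0.887), which turned to -0.35 without sample 2-2. The annotation assigns both probe sets to the same record.

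Src was not detected above background on all arrays by either probe set. Levels of 1450918_s_at were 5.53, 5.26, 5.86 and 5.22, with only sample 2-1 above its bound, and those of 1423240_at were 3.26, -0.34, 3.55 and 4.32, all below. Neither passed the filter for the test between the animals, and these values do not show that Src RNA is absent.

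Crk and Crkl are adaptors that bind phosphorylated Dab1 and bring in the exchange factor Rapgef1, which activates Rap1. Crk passed on all 4 arrays with 1 of 5 probe sets. This probe set, 1448248_at, was at 7.99, 7.77, 7.68 and 7.76, and the animals differed by -0.16 (95% interval -0.88 to 0.56, limma), which was not called, or by 0.41 on deposited signals. On 1416201_at the levels were 5.72, 5.51, 6.56 and 5.26, with sample 2-1 the highest and samples 1-1 and 2-2 below their bounds. The remaining 3 Crk probe sets were below background on every array, with deposited signals from 3.4 to 31.7.

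Crkl passed with 1 of 4 probe sets, 1436950_at, which was at 8.96 and 9.05 in animal 1 and at 8.13 and 8.15 in animal 2. Samples of 1 animal lay within 0.1 of each other and the animals did not overlap. The difference was -0.86 ± 0.25 (SE, 95% interval -1.45 to -0.27), or 0.551 times the signal, with adjusted p = 0.173 (limma), and it shrank to -0.33 on deposited signals. The other Crkl probe sets had deposited signals from 0.7 to 28.8 and were below background on every array.

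Pafah1b1, mutated in human lissencephaly, passed on all 4 arrays with 2 of 5 probe sets. Levels of 1448578_at were 9.40, 9.27, 9.59 and 9.55 (9.45 ± 0.17, SD, n = 2 animals), and the animals differed by 0.24 (95% interval -0.22 to 0.70, adjusted p = 0.580, limma). On 1417086_at they were 9.01, 9.11, 8.18 and 8.89, with sample 2-1 the lowest, a difference of -0.52 (95% interval -1.24 to 0.19, adjusted p = 0.426) that came to 0.01 on deposited signals. The probe set 1460199_a_at (6.09 ± 0.38) missed its bound in sample 1-1 alone. On 1427703_at deposited signals were 1.5, 30.8, 0.9 and 0.6, and on 1439656_at they ran from 1.0 to 6.9, both below background on every array.

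Over the whole pathway, 20 of the 34 probe sets passed the filter and were tested between the animals, and 0 were called (limma with Benjamini-Hochberg adjustment), against 0.364% of all 11806 probe sets tested, that is 43 probe sets, 25 higher and 18 lower in animal 2. At an unadjusted p under 0.05 there were 5 of 20 (Reln 1449465_at, Vldlr 1442169_at, Lrp8 1442347_at, Dab1 1427308_at and Crkl 1436950_at), against 16.9% of all. In 12 of the 20 the animals did not overlap, against 48.4% of all, 5 higher (23.3% of all were so) and 7 lower in animal 2. Of the 20 differences, 10 were positive and 10 negative, with a median of 0.05, and 46.6% of all were positive, with a median of -0.05. On deposited signals the median difference over the tested probe sets was 0.48, and 606 were called, 597 higher and 9 lower, Lrp8 1442347_at among the first. The count without 1 sample ran from 1 to 1012, and that of the pathway's probe sets from 0 to 4. The larger counts came without sample 2-1 (815 and 4) or 2-2 (1012 and 2), when the residual spread came from the closer pair of animal 1 alone, and the smaller ones without sample 1-1 (7 and 0) or 1-2 (1 and 0).

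**Figure D4:**
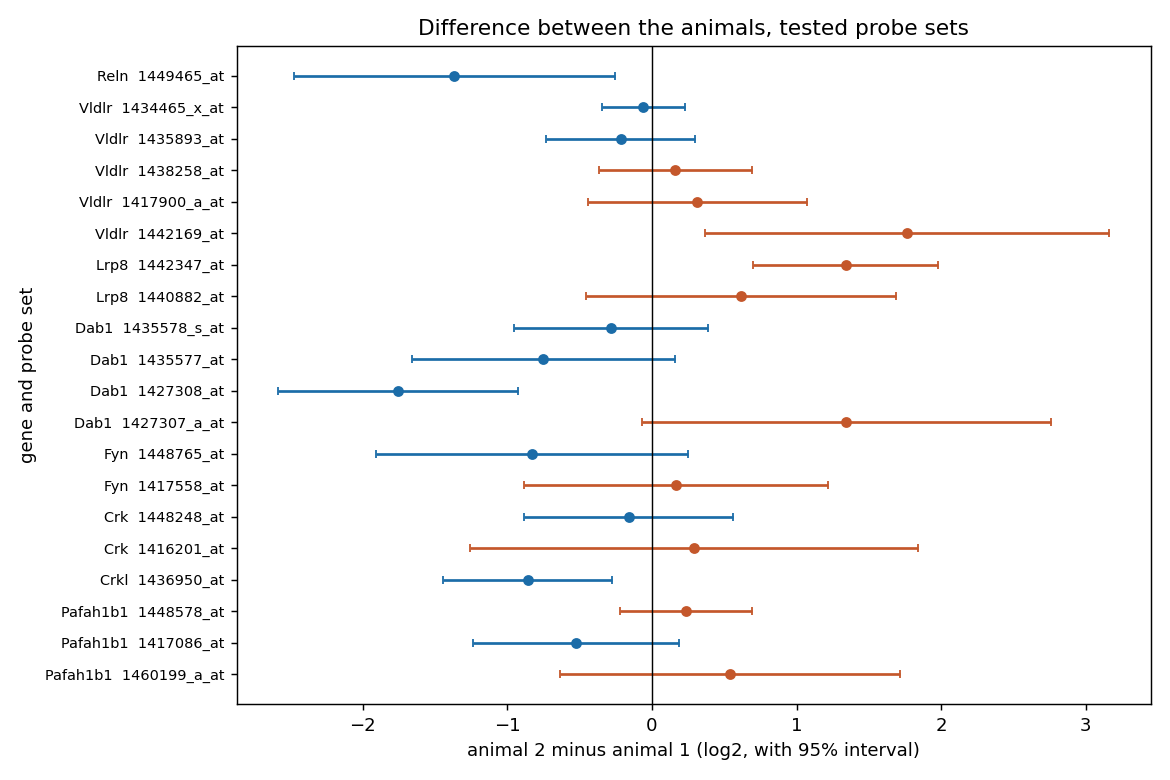
Difference between the animals, animal 2 minus animal 1, on the log2 scale for the 20 probe sets tested, with 95% intervals from the limma fit. Orange points are positive and blue points negative; the intervals of 5 probe sets, 1 each of Reln, Vldlr, Lrp8, Dab1 and Crkl, leave out 0 before adjustment for the number of probe sets tested.

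Samples 1-1 and 1-2 were the closest pair. Over the 16 probe sets of the pathway above background on all 4 arrays, the median absolute log2 difference was 0.19 between samples 1-1 and 1-2 and 0.31 between samples 2-1 and 2-2. It was 0.29 to 0.58 for the 4 pairs from different animals, so the samples of animal 2 differed by no less than some of these. All 8314 probe sets above background on all 4 arrays gave 0.22, 0.37 and 0.41 to 0.44 in the same order.

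Around these 9 genes stood 99 further genes of the pathway, of which 90 were measured, 50 lay above background on all 4 arrays at their brightest probe set, 18 on 1 to 3 arrays and 22 on none. The share of all named genes above it on all 4 arrays was 29.9%, against which the counts by role are to be read. Between the animals 106 of their probe sets were tested, 47 with a positive and 59 with a negative difference, and 2 were called (limma), against 0.364% of all probe sets tested, both of Clu and both lower in animal 2. Clu encodes clusterin, a secreted chaperone that binds the same receptors and that astrocytes also make. Its probe sets 1454849_x_at and 1437458_x_at differed by -0.92 ± 0.12 (SE, adjusted p = 0.0466) and -0.99 ± 0.13 (adjusted p = 0.0480), and their levels did not overlap, at 11.33, 11.33, 10.47 and 10.35 for the first in samples 1-1, 1-2, 2-1 and 2-2. Both carry the suffix for probes that can bind other transcripts. The summed glial signal was also lower in animal 2, with 8 of 10 genes negative and a median of -0.27, and its part was not tested.

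The genes shown by role are mostly those of highest and lowest level in each list. Socs7, Cul5, Rap1a, Rap1b, Rapgef1 and Ndel1 were named after their values were seen, and Rac1, Apbb1, Dctn1 and Nudc only for their probe set suffix. The values are not a ranking. Ligand and receptor partners passed in 8 of 14 cases, with the precursor protein App at 12.05 ± 0.37 (SD, n = 2 animals) and Thbs1, a thrombospondin that binds the receptors, at 1.19 ± 1.95 and below background throughout. Proteases that cut reelin passed in 2 of 5 cases, with Adamts3 at 9.76 ± 0.29 and Adamts5 (3.42 ± 1.12) below background. Other members of the LDL receptor family passed in 4 of 9 cases, including the sorting receptor Sorl1 (12.05 ± 0.02), while Lrp5 (0.76 ± 0.57) did not. Other adaptors with a phosphotyrosine-binding domain passed in 3 of 9 cases, with the scaffold Mapk8ip2 at 9.41 ± 0.06, while Dab2 (3.81 ± 0.30), the relative of Dab1, was below background on every array.

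None of the 4 measured genes among the other Src family kinases and their inhibitor Csk passed on all 4 arrays: Yes1 (5.72 ± 0.58) passed on 3, and Csk (2.26 ± 0.93) on none. Genes of Dab1 turnover, by which phosphorylated Dab1 is ubiquitinated and degraded, passed in 5 of 5 cases. They include the ligases Arih2 (10.45 ± 0.24) and Cbl (6.24 ± 0.27), and Socs7 (8.99 ± 0.45) and Cul5 (6.65 ± 0.13), the substrate receptor and scaffold of the ligase that acts on Dab1. Genes acting downstream of phosphorylated Dab1 passed in 12 of 19 cases, with cofilin, Cfl1, at 12.83 ± 0.07 and the kinase subunit Pik3cb (3.29 ± 1.14) below background, and Rap1a, Rap1b and Rapgef1 were all above it at 10.86 ± 0.17, 9.81 ± 0.37 and 6.28 ± 0.49.

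Genes of Cdk5 and microtubule proteins passed in 7 of 9 cases, with the tubulin gene Tuba1a at 12.17 ± 0.12, while Dcx (2.10 ± 0.49), a marker of immature neurons, was below background. The genes that work with Lis1 passed in 7 of 10 cases, with the dynein chain Dync1i1 at 10.20 ± 0.04. Nde1 (3.83 ± 1.00) passed on 1 array, and its paralog Ndel1 was at 9.64 ± 0.57. Notch, NMDA receptor and synapse partners passed in 2 of 6 cases, with the AMPA receptor subunit Gria2 at 11.02 ± 0.01 and the NMDA receptor subunit Grin2a (1.01 ± 0.62) below background. These counts rest on 1 probe set per gene. Those of Arih2, Cfl1, Tuba1a, Rac1, Apbb1, Dctn1, Nudc and Clu, all counted as passing, carry a suffix for probes that can bind other transcripts. Between the animals, the median differences of the 10 role lists ran from -0.81 (1 tested probe set, of Yes1) to 0.45 (4 tested probe sets of the reelin proteases), and no probe set outside Clu was called.

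**Figure D5:**
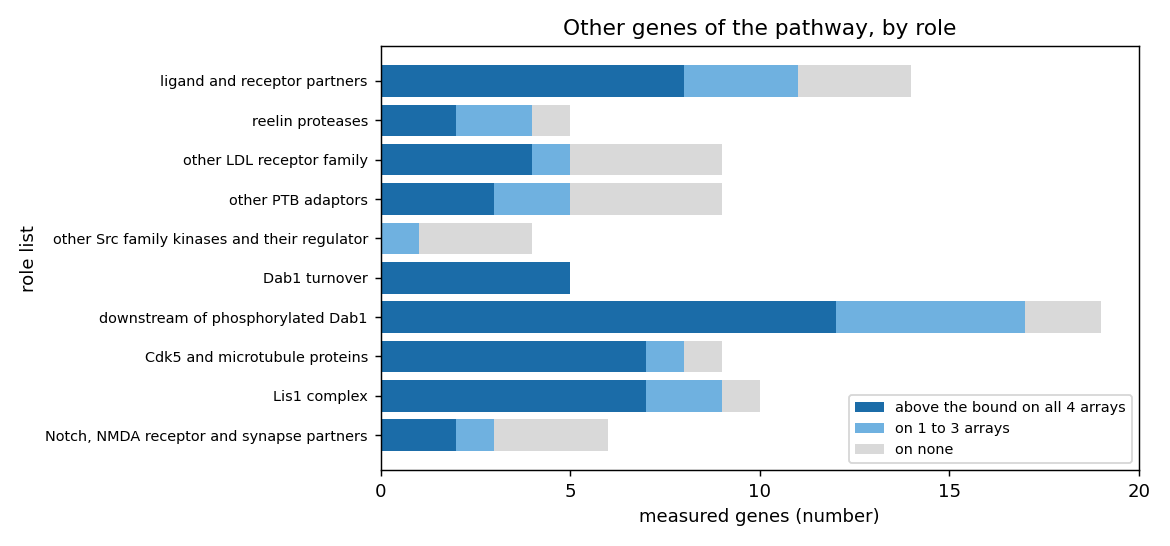
Number of measured genes in each of 10 role lists around the 9 genes, split by whether the brightest probe set lay above background on all 4 arrays, on 1 to 3 or on none. All 5 genes of Dab1 turnover lie above it on all 4 arrays, and 0 of 4 other Src family genes do.

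The genes whose profile over the 4 samples lay nearest to Vldlr 1434465_x_at were Dnaja1, Polr3k and Tspan13, with mean absolute differences of 0.0063, 0.013 and 0.015 between centred log2 levels. For Dab1 1435578_s_at they were Angel2, Baiap2 and Vezf1 (0.018, 0.025 and 0.030). With only 4 samples such nearness is common: 577 of 7587 probe sets lay within 0.1 of the Vldlr profile and 155 of 7588 within 0.1 of that of Dab1.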

How the data were processed

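Each deposited value is an intensity, the linear signal of a probe set on an array, and the authors' software was GCOS, per the submitters' processing notes. The sources used here do not give the GCOS version, its algorithm, its scaling target or any detection calls. Per the labels' protocols, RNA was amplified from an input near a nanogram, and small inputs raise the spread of weak signals. The number of columns belonging to other samples was 0.

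Gene names came from the platform annotation, in which 34945 probe sets have 1 symbol, 932 several, 9160 none, and 64 are controls. All 34 probe sets of the 9 genes kept their symbol when looked up by gene identifier in RefSeq (GRCm38.p6), and all 9 genes matched a promoter window there. The values name no build, so the only coordinates given are those of the RefSeq windows.

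After a floor of 0.1 and removal of controls, log2 signals were quantile-normalized in limma 3.58.1 (R 4.3.3), because the 2% trimmed means of the arrays were 47.7% of their average apart, over a limit of 5%. For each array, the bound for background was the 95th percentile over 88 measured genes (92 listed) restricted to non-neural organs, taking each at its brightest probe set. The comparison of animal 2 with animal 1 used lmFit and trended eBayes on the 11806 probe sets that passed the bound on 2 or more arrays (2 residual degrees of freedom). Adjustment was by Benjamini-Hochberg over all of these at a false discovery rate of 0.05, and intervals are 95% intervals of the fit. The steps were tested on simulated data for the same comparison and 11806 probe sets, where 25% of 2-fold and 61% of 4-fold changes were called, 6.52% of calls were false, and the 86 changes recovered all had the right direction.

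The text names all 9 genes with every probe set, the genes of highest and lowest mean level in each role or marker list, genes with a called probe set, and the 3 genes of nearest profile to the brightest probe sets of Vldlr and Dab1. Any other gene was named after its values were seen. The 9 genes, the lists and the tests were chosen with earlier results of these data known. Alternatives were 2 other scalings, an offset of 16, other bounds, filters and probe set choices, a fit without trend, and omission of each sample. Scan batches could not be examined, since scanner files were not used here.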

Additional observations from a re-analysis of the deposited data

Results flagged for a closer look

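In 2 of the 20 tested probe sets, a single sample lay far from the other 3 by Dixon's test over the 4 samples. Chance flags about 1 in 20 when the 4 samples are independent, but these are 2 pairs from 2 animals. The share flagged among all tested probe sets was not computed, so the 2 cases are described only. For Lrp8 1440882_at, sample 2-1 at 8.15 lay above the rest, with a gap of 0.880 of the whole range. For Fyn 1448765_at, sample 2-2 at 6.81 lay below the rest, with a gap of 0.838 of the range.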

How the results depend on the processing

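Of the 20 tested differences, 13 kept their sign in every alternative in which they were tested, and 17 did when deposited signals were left aside. On deposited signals the sign turned for Vldlr 1434465_x_at (0.39) and 1435893_at (0.27), Dab1 1435578_s_at (0.24), Crk 1448248_at (0.41) and Pafah1b1 1417086_at (0.0051). This scale adds the shift of 0.48 between the animals. Leaving out samples turned Vldlr 1434465_x_at to 0.021 (without 1-1, range -0.14 to 0.021), Vldlr 1438258_at to -0.032 (without 1-2, range -0.032 to 0.35) and Fyn 1417558_at to -0.35 (without 2-2, range -0.35 to 0.69), and none of these was called. The count of all probe sets called (43) became 606 on deposited signals, 5 without a filter on dim probe sets, 160 with only those above the bound on all 4 arrays, and 0 without the mean-variance trend (limma, 1730 at an unadjusted p under 0.05). It ran from 1 to 1012 with 1 sample left out. The pathway's calls (0, limma) became 1 on deposited signals and 0 to 4 with 1 sample left out, where the lone sample of an animal is assumed to vary like the pair of the other. Of the 9 genes, 8 stayed above the bound with any 1 sample left out and 4 with the median over probe sets. Probe sets near background and the 2 animals limit these results.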

Other observations

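Most markers of other cells, beside those in the report, did not pass on all 4 arrays. The share of all named genes that did was 29.9%. Below background on every array were 4 of 8 interneuron, 4 of 7 oligodendrocyte, 6 of 8 microglia and 3 of 7 blood vessel genes. Interneuron genes passed on all 4 arrays in 2 of 8 cases, with Lgi2 at 7.72 ± 0.57 (SD, n = 2 animals) and somatostatin, Sst, at 2.32 ± 0.06. Oligodendrocyte genes passed in 2 of 7 cases, the myelin genes Cnp at 11.38 ± 0.48 and Mbp at 10.18 ± 0.09, with Mog at 0.34 ± 3.0. Microglia genes passed in 1 of 8 cases, Csf1r (6.94 ± 1.03), and Itgam was at -0.26 ± 2.09. Blood vessel genes passed in 2 of 7 cases, with Slc2a1 at 8.67 ± 0.47 and Pecam1 at -0.16 ± 0.21. Among the Purkinje cell genes, Pcp2 was higher in animal 2 by 0.57 ± 0.07 (SE, limma, adjusted p = 0.0387), and Calb1 was lower on 1448738_at by -0.88 ± 0.10 (adjusted p = 0.0343), while its brightest probe set held the top rank on every array.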
